A study of Mus musculus with 4 samples.

Results

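The genes that encode the mitochondrial respiratory chain were compared between endothelial cells (ECs) from brain parenchyma and ECs from the dura mater, the tough outer layer of the meninges. Members were the rows whose symbol began with Nduf, Uqcr, Atp5, Cox4, Cox5, Cox6, Cox7, Cox8 or mt-, together with Sdha, Sdhb, Sdhc, Sdhd, Cyc1 and Cycs. This rule found 94 of the 23282 rows: 43 for complex I (7 core subunits, 29 other subunits and 7 assembly factors), 4 for complex II, 9 for complex III, 1 for cytochrome c, 20 for complex IV and 17 for complex V. No row began with mt-, so the subunits made from mitochondrial DNA were not analysed here. Ndufa4 and Ndufa4l2 were placed with complex IV, the complex in which Ndufa4 protein is found.

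RNA was sequenced from 2 libraries of dura mater ECs and 2 libraries of brain ECs, all from C57BL/6J mice 8 weeks of age, with no treatment or transgene named in the labels. Per the methods of the study, both tissues were digested to single cells and ECs were sorted by FACS with antibodies to CD31, CD45 and TER-119, the gate not being spelled out there, and the brain cells alone passed a magnetic CD31 enrichment first. Handling therefore differed with the tissue and cannot be told apart from it. The QuantSeq kit counts the 3′ ends of polyadenylated RNA, so that a count does not scale with transcript length, and the number of mice behind a library is not given in the sources used here.

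Oxidative phosphorylation is carried out by 5 protein complexes in the inner mitochondrial membrane. Complexes I and II take electrons from NADH and succinate, complex III passes them through cytochrome c to complex IV, where oxygen is reduced, and complexes I, III and IV pump protons whose return drives ATP synthesis by complex V. ECs are known for a strong reliance on glycolysis, and brain ECs have long been described as rich in mitochondria. Several complex IV subunits have isoforms made in particular tissues such as heart, skeletal muscle, lung or testis, and nuclear genes of the chain are known targets of the factors NRF1, GABP (an ETS factor), YY1 and ERR alpha.

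A set of 4 of the 86 tested members did not exceed 7 counts in either brain library but did so in both dura mater libraries: Ndufs8, Sdhd, Cox6b2 and Cox4i2. The same pattern was found in 9.98% of all 9347 genes tested. Promoter sequences of Ndufs8, Sdhd and Cox6b2 are shown because these genes and Cox4i2 had the highest fitted changes in favour of the dura mater. They were taken from RefSeq (GRCm38.p6, minus strand, 250 bases before to 50 bases after the gene start, printed 5′ to 3′), at chr19:3912725-3913024 for Ndufs8, chr9:50603800-50604099 for Sdhd and chr7:4753045-4753344 for Cox6b2. Capitals mark matches to a motif of an ETS factor or of ERR.
Ndufs8: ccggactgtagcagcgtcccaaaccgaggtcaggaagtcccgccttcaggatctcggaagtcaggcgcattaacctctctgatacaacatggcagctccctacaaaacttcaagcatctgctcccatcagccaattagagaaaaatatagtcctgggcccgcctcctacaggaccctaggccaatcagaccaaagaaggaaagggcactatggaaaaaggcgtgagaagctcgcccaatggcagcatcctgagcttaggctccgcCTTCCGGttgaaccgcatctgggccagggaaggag
Sdhd: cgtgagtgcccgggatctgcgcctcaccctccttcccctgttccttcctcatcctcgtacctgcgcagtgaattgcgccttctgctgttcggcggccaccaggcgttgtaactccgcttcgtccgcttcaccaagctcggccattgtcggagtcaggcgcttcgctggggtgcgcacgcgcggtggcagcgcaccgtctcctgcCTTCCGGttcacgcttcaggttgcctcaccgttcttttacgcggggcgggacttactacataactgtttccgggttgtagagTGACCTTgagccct
Cox6b2: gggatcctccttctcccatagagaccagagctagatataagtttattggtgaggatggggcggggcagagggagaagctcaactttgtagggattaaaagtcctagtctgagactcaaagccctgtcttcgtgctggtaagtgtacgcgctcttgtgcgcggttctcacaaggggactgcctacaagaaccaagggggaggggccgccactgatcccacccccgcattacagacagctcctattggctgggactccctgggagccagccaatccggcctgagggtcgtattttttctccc
Ndufs8 held 1 ETS match, Sdhd 1 ETS and 1 ERR match, and Cox6b2 none of the motifs searched.

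Promoters were matched for 77 of the 94 members. The letters searched, on both strands, were GCATGCGC for NRF1, CCGGAAG for ETS factors, AAGATGGCG for YY1 and AAGGTCA for ERR. The ETS motif ends in the letters AAG with which the YY1 and ERR motifs begin, so that 1 stretch can match a pair of them. The NRF1 letters were present in 13 member promoters (16.9%) against 2.8% of all 27025 promoters, the ETS letters in 16 (20.8% against 9.12%), the YY1 letters in 7 (9.09% against 1.49%) and the ERR letters in 8 (10.4% against 4.66%). At least 1 of the 4 was present in 35 member promoters (45.5%) against 16.8% of all promoters. Member promoters were also richer in G and C, with a median of 58.3% against 52.7%, and the part of base composition in these shares was not tested.

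Library totals lay between 13518973 and 16096203 counts, and 9350 to 11803 symbols had at least 1 count. Counts of the brain replicates had a chi-square of 466 per degree of freedom and those of the dura mater replicates 257, so neither pair was 1 library listed again. The common biological coefficient of variation, the spread between replicates relative to the mean, was 1.39. Markers of other cells differed between tissues. The 10 erythroid symbols held 2.66% and 3.63% of brain counts and 0.219% and 0.114% of dura mater counts, and 5 of them passed the test as lower in dura mater. Among these 5, Hbb-bs and Hbb-b1 had similar counts in each library (111254 and 110614 in brain replicate 1), as had Hbb-bt and Hbb-b2 (13226 and 12605). The same reads may thus have been counted under both symbols of a pair, so that the share and the calls may be too high. These 4 symbols are named after their values were seen. The 8 fibroblast genes held 0.254% and 0.217% of brain counts and 1.12% and 1.14% of dura mater counts, 1 of them passing as higher. That gene, Mgp, held most of these counts, and the other 7 held 0.00074% and 0.00488% in brain and 0.0367% and 0.0359% in dura mater. The 12 endothelial markers held 0.923% to 1.35% in every library, and 1 of them, the tight junction gene Cldn5, passed as lower in dura mater (log2 fold change -2.52, edgeR adjusted p = 0.0388). Both Mgp and Cldn5 are named after their values were seen. As for other cells, markers of skeletal muscle (at most 0.00132%), cardiac muscle (at most 0.000472%) and brown fat (at most 1.4e-05%) were near 0. Leukocyte markers held 0.000124% and 0.00487% in brain against 0.00508% and 0.00289% in dura mater. Most of their dura mater counts were of Cd68, with 4 and 3 counts in brain and 550 and 441 in dura mater. Csf1r had 4 and 646 counts in brain against 28 and 9 in dura mater. Both Cd68 and Csf1r are named after their values were seen. Neuronal markers held 0.0142% to 0.0204%, oligodendrocyte markers at most 0.0129%, and astrocyte markers 0.00517% and 0.00076% in brain against 0.0415% and 0.0163% in dura mater. Single genes, named after their values were seen, held most of the neuronal (Stmn2) and astrocyte (Gja1) counts. Without Stmn2 the neuronal list held 9.68e-05% to 0.00648%. Without Gja1 the astrocyte list held 3.46e-05% and 1.45e-05% in brain against 0.0145% and 0.001% in dura mater. The part of these cells in the results that follow was not tested, and in sorted bulk RNA fewer cells of a type and less RNA per cell cannot be told apart.

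No oxidative phosphorylation gene passed the test between tissues. Of the 94 members, 86 had enough counts to be tested, and 0 of them had an adjusted p under 0.05 in the quasi-likelihood test of edgeR, where 0.61% of all 9347 genes tested did (57 genes). At an unadjusted p under 0.05 there was 1 member, Ndufa2, against 10% of all genes. DESeq2 called 0 members and 8.63% of all genes. The log2 fold change, given throughout as dura mater over brain, was above 0 for 38 members and below 0 for 48, with a median of -0.20 where the median of all genes was -0.01. At least 2-fold higher values in dura mater were fitted for 13 of the 86 members and at least 2-fold lower values for 18, against 2653 and 2398 of all 9347 genes. Both dura mater libraries lay above both brain libraries for 12 members, where 26.2% of all genes did so, and below them for 15 members, where 16.9% did so. The other 59 overlapped. With 2 libraries a tissue, an exact permutation test of a single gene cannot go below a p of 0.333, and the labels do not say whether libraries came from separate animals, so that p-values measure the spread between these libraries.

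**Figure D1:**
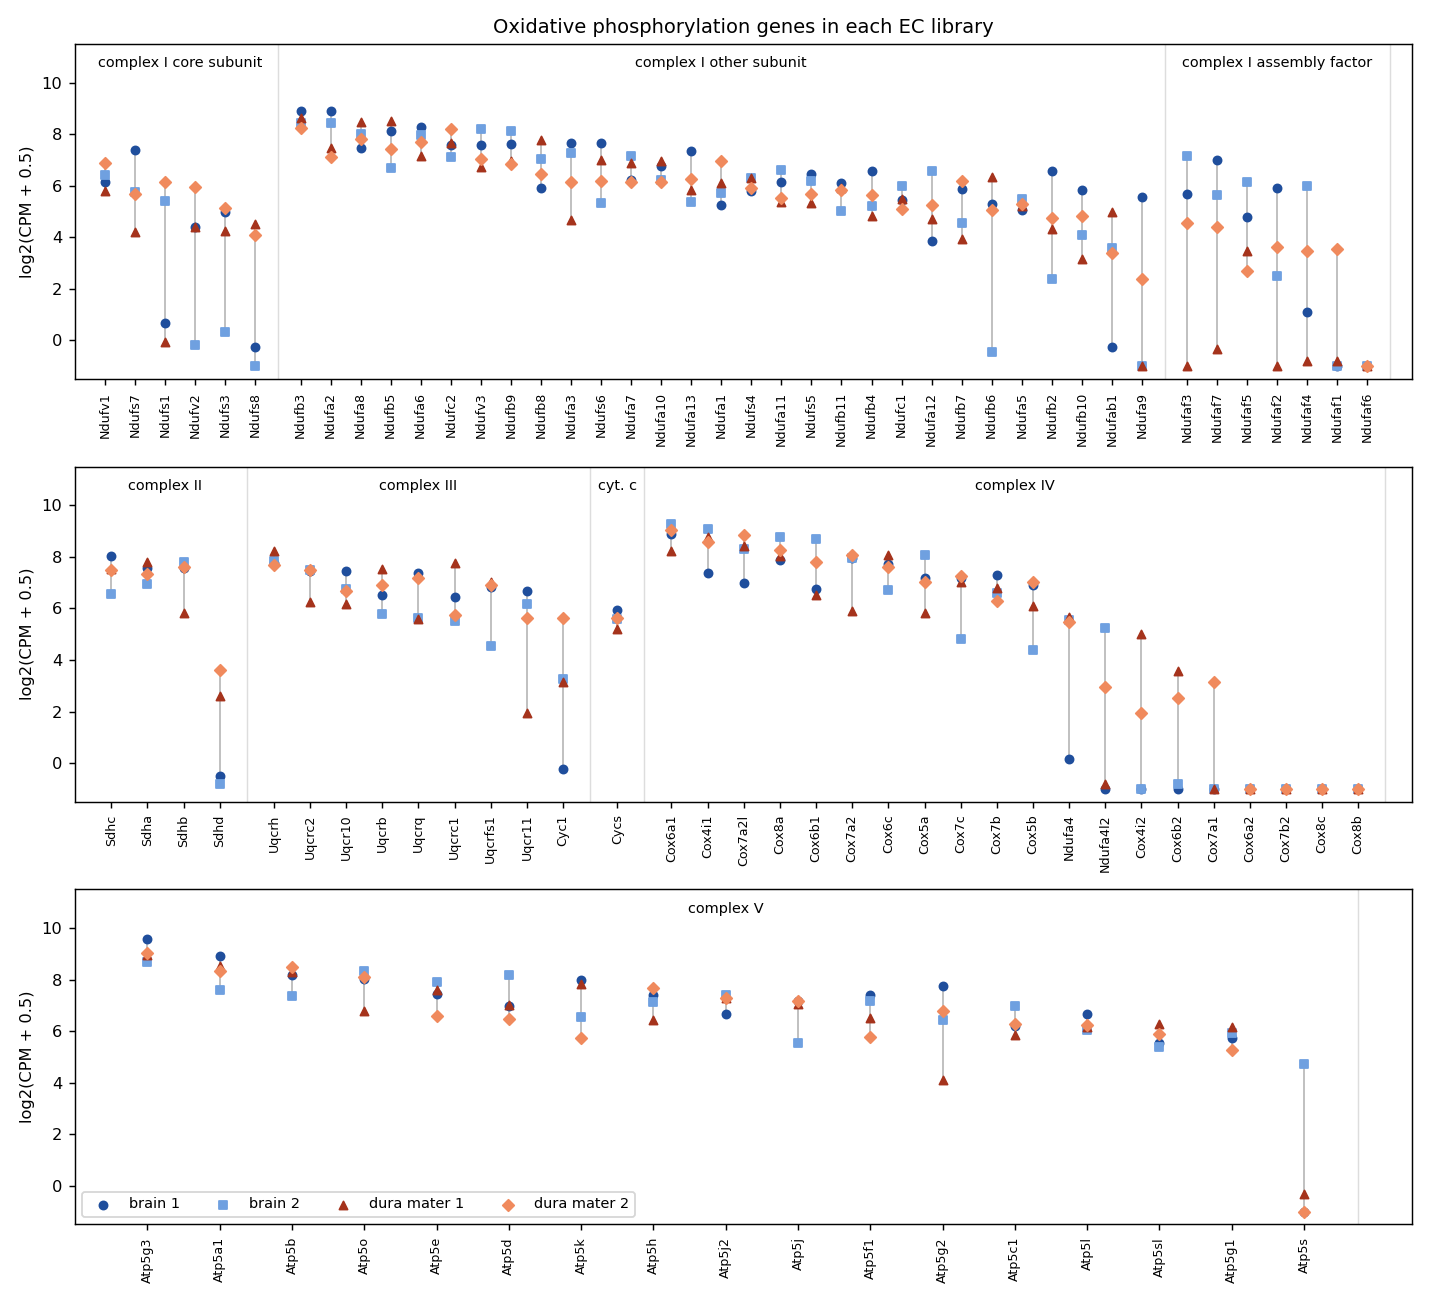
Level of the members in each library, 1 of them not shown, as log2(CPM + 0.5), where CPM is the count scaled to the adjusted library size, with members ordered by mean level within each complex and grey lines joining the lowest and the highest library. Most subunits lie within a narrow band at the top, while the assembly factors of complex I and a few subunits spread down to 0 counts, plotted at -1.

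Most respiratory chain genes were counted in every library. At least 64 counts in every library were reached by 67 of the 86 tested members (77.9%) against 45.6% of all genes. Together the members held 1.19% (95% Wilson interval 1.18 to 1.19) and 1.04% (1.04 to 1.05) of counts in the brain replicates, compared with 0.967% (0.962 to 0.972) and 1.06% (1.05 to 1.06) in those of the dura mater. The means were 1.12% ± 0.103 for brain ECs and 1.01% ± 0.0632 for dura mater ECs (SD, n = 2), a difference of -0.103 percentage points. Dura mater replicate 2 lay above brain replicate 2, so the tissues overlapped. Wilson intervals cover counting error only and reached at most 0.00344 points to either side for a single complex.

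By complex, the tissue ranges overlapped for complexes II, III, IV and V and for cytochrome c. Complex I, the entry point for NADH, held 0.449% and 0.369% of brain counts and 0.337% and 0.329% of dura mater counts, so that both dura mater libraries were lower. Complex IV, the oxidase, held 0.214% and 0.304% in brain against 0.220% and 0.296% in dura mater, and replicates of the same tissue were further apart than the tissue means, 0.259% ± 0.0639 and 0.258% ± 0.0540. Complex V, the ATP synthase, held 0.343% and 0.250% in brain against 0.257% and 0.267% in dura mater. Complex III held 0.113% and 0.0734% against 0.103% and 0.104%, complex II 0.0643% and 0.0417% against 0.0464% and 0.0555%, and cytochrome c 0.00614% and 0.00462% against 0.00364% and 0.00497%.

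**Figure D2:**
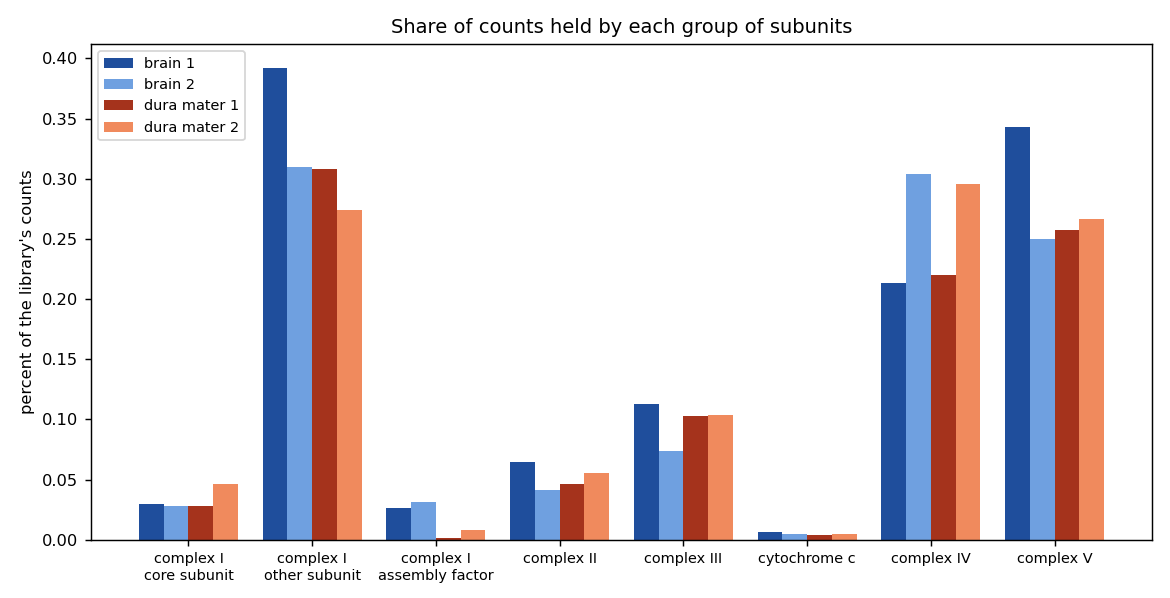
Percent of each library's counts held by the core subunits, other subunits and assembly factors of complex I and by each further complex, 1 bar per library. Assembly factors of complex I lie at 0.0266% and 0.0314% in brain against 0.00108% and 0.00842% in dura mater, while the bars of complexes II to V overlap between tissues.

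The 7 core subunits of complex I, which bind the flavin and the iron-sulfur clusters or the quinone, had no common direction past the replicate spread. Together they held 0.0296% and 0.0276% of counts in brain and 0.0278% and 0.0467% in dura mater. Fitted log2 fold changes were above 0 for 6 of the 7, with a median of 0.73, and none passed the test. Ndufs8, which carries a pair of iron-sulfur clusters, was counted 5 and 0 times in brain and 300 and 272 times in dura mater, or 0.345 and 0 CPM against 22.4 and 16.7 CPM. Both dura mater libraries were far above both brain libraries for this gene. Its log2 fold change was 5.98 (SE 3.31, 95% interval -2.04 to 13.99, edgeR adjusted p = 0.614). The ratio of pooled counts was 107 (counting interval 45.4 to 330). Such a counting interval covers counting error only and leaves out the spread between replicates. The pattern of at most 7 counts in either brain library and more in each of the dura mater was found in 4 members and in 9.98% of all genes.

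Ndufs7, the subunit with the last iron-sulfur cluster of complex I, was at 165 and 53.0 CPM in brain and 17.9 and 50.9 CPM in dura mater. Both dura mater libraries were lower (log2 fold change -1.66, SE 1.15, edgeR adjusted p = 0.787), with dura mater replicate 2 close to brain replicate 2. Ndufv1, which binds the flavin, was at 70.2 and 84.8 CPM in brain and 55.6 and 117 CPM in dura mater, with overlapping groups.

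Further core subunits were split between replicates of 1 tissue or both. Ndufs1, the large iron-sulfur subunit, had 16 and 559 counts in brain and 6 and 1162 counts in dura mater. It was low in replicate 1 and high in replicate 2 of each tissue, and its log2 fold change of 0.72 (SE 2.71) turned to -5.22 without dura mater replicate 2. Ndufs3 had 457 and 10 counts in brain and 251 and 569 in dura mater, and Ndufv2 had 300 and 5 counts in brain and 273 and 990 in dura mater. Both were low in brain replicate 2 alone, and their intervals included 0. Sequence shared with another gene covers 53% of the 3′ end of Ndufs3.

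The 29 other subunits of complex I, which surround the core and take part in its assembly and stability, held 0.392% and 0.310% of counts in brain and 0.308% and 0.274% in dura mater. Fitted values were above 0 for 11 and below 0 for 18 (median -0.27), and none passed the test. The groups did not overlap for 9 of them, 2 higher and 7 lower in dura mater, where 26.2% and 16.9% of all genes were higher and lower. Ndufa2, a subunit with a thioredoxin-like fold, was at 482 and 348 CPM in brain and 175 and 140 CPM in dura mater. Means were 415 ± 94.9 CPM and 158 ± 25.1 CPM (SD, n = 2), and both dura mater libraries were at less than both brain libraries. Its log2 fold change was -1.40 (SE 0.45, 95% interval -2.48 to -0.31), with an unadjusted p of 0.0196 in edgeR, an adjusted p of 0.415 over all genes and a DESeq2 adjusted p of 0.143. Over the alternatives the adjusted p ran from 0.0370, without brain replicate 2, to 0.793.

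Ndufb3, an accessory subunit of the membrane arm, was at 476 and 347 CPM in brain and 393 and 304 CPM in dura mater. The groups overlapped, and its log2 fold change was -0.24 (SE 0.40, 95% interval -1.22 to 0.74). Chosen after their values were seen, Ndufa3, Ndufb9 and Ndufv3 were further accessory subunits lower in both dura mater libraries. Ndufa3 was at 202 and 153 CPM against 24.8 and 70.1 CPM (log2 fold change -1.90, SE 0.81, edgeR adjusted p = 0.466). Ndufb9 was at 197 and 282 CPM against 123 and 114 CPM, and Ndufv3 at 193 and 294 CPM against 105 and 132 CPM, with edgeR adjusted p of 0.569 and 0.566.

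The assembly factors of complex I with Ndufaf symbols, proteins that help build or modify the complex and are not part of it, formed the group with the lowest ratio of dura mater to brain share. They held 0.0266% and 0.0314% of counts in brain ECs (mean 0.0290% ± 0.00344) and 0.00108% and 0.00842% in dura mater ECs (0.00475% ± 0.00519, SD, n = 2), a ratio of 0.164. All 5 that could be tested had log2 fold changes below 0, from -3.06 to -2.44, and 0 of the 5 passed the test. The direction was not common to all of them when a library was left out: Ndufaf4 was fitted at 1.52 without brain replicate 2 and Ndufaf2 at 0.09 without brain replicate 1. The median of -2.56 ran from -2.74 to -2.40 under the other scalings, was -4.87 with limma-voom and -3.68 with the replicate number as a block, and ran from -7.64 (without dura mater replicate 2) to -1.97 (without dura mater replicate 1) when a library was left out. Members were grouped by role with earlier results of these data known, so their direction is a description. Assembly factors of complex I without an Ndufaf symbol, named after their values were seen, went both ways with overlapping groups. Fitted values were 2.10 for Foxred1, 1.54 for Timmdc1 and 0.59 for Acad9, against -0.91 for Ecsit and -6.07 for Tmem126b. Nubpl, not tested, had 254 counts in dura mater replicate 2 and 0 in the other libraries.

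Ndufaf7, a methyltransferase that acts during assembly, had 1830 and 652 counts in brain and 4 and 334 counts in dura mater. Its log2 fold change was -3.06 (SE 2.06, edgeR adjusted p = 0.769), and part of its 3′ end has a sequence that occurs in 283 further genes, so that its counts may be uncertain. Ndufaf3, which acts early in assembly, had 729 and 1867 counts in brain and 0 and 373 counts in dura mater (log2 fold change -3.05, SE 2.49, edgeR adjusted p = 0.900). For both genes dura mater replicate 1 was near 0 while dura mater replicate 2 was not, and without dura mater replicate 2 the fitted values were -7.64 and -9.37. Ndufaf5, a hydroxylase of Ndufs7, was low in both dura mater libraries, with 388 and 918 counts in brain and 140 and 97 counts in dura mater (log2 fold change -2.53, SE 2.02, edgeR adjusted p = 0.887).

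The other assembly factors are named after their values were seen. Ndufaf2, which acts late in assembly, had 873 and 69 counts in brain and 0 and 193 counts in dura mater, and Ndufaf4, the partner of Ndufaf3, had 24 and 836 counts in brain and 1 and 174 counts in dura mater. The groups overlapped for both, and an antisense gene covers 65.6% of the exon length of Ndufaf2. Ndufaf1 was at 0 in brain, with 1 and 184 counts in dura mater, and Ndufaf6 had 0 counts in every library. Neither of them was tested. In dura mater replicate 1, Ndufaf1, Ndufaf2, Ndufaf3, Ndufaf4 and Ndufaf7 were at 0 to 4 counts, and in dura mater replicate 2 those 5 were at 174 to 373 counts.

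Complex II is both an enzyme of the citric acid cycle and an entry point of the chain. Sdha, the flavin subunit, was at 191 and 122 CPM in brain and 221 and 160 CPM in dura mater, with overlapping groups (log2 fold change 0.28, SE 0.55). Sdhb, the iron-sulfur subunit, was at 190 and 220 CPM in brain and 55.7 and 196 CPM in dura mater, and Sdhc, a membrane anchor, at 260 and 93.3 CPM against 185 and 179 CPM. Neither separated the tissues, and the fitted value of Sdhc (0.04) changed sign with the scaling. Sdhd, the other membrane anchor, had 3 and 1 counts in brain and 74 and 193 counts in dura mater, or 0.207 and 0.0756 CPM against 5.52 and 11.8 CPM. Both dura mater libraries were above both brain libraries (log2 fold change 4.97, SE 2.76, 95% interval -1.71 to 11.65, edgeR adjusted p = 0.615), and the ratio of pooled counts was 62.2 (counting interval 24.02 to 230).

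In complex III, fitted values were above 0 for 5 subunits and below 0 for 4, and none passed the test. Uqcrfs1, the Rieske iron-sulfur protein, was at 113 and 23.1 CPM in brain and 131 and 121 CPM in dura mater. The groups did not overlap, and brain replicate 2 alone was far below the rest (log2 fold change 0.88, SE 0.97, edgeR adjusted p = 0.994). Cyc1, which encodes cytochrome c1, had 5 and 122 counts in brain and 111 and 808 counts in dura mater, with overlapping groups (log2 fold change 2.56, SE 2.81). Uqcrh, the hinge protein, was at 216 and 229 CPM in brain and 296 and 206 CPM in dura mater, and its log2 fold change of 0.17 had a 95% interval from -0.95 to 1.30. Uqcrc2, a core protein, was at 176 and 180 CPM in brain and 75.9 and 181 CPM in dura mater. Cycs, the mobile carrier cytochrome c, was at 61.3 and 48.2 CPM in brain and 36.7 and 49.0 CPM in dura mater, and the groups overlapped (log2 fold change -0.35, SE 1.30).

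Complex IV held the member with the highest fitted value, Cox4i2 (chromosome 2, 152754173 to 152765037, plus strand, GRCm38), the isoform of subunit 4 known from lung. It was not counted in either brain library and had 421 and 54 counts in dura mater, or 31.4 and 3.31 CPM. Against a floor of 3 counts in each brain library, replicate 1 of the dura mater was at least 145-fold higher and replicate 2 at least 15.3-fold higher. Its log2 fold change was 6.97 (SE 2.84), with an unadjusted p of 0.0549, an edgeR adjusted p of 0.466 and a DESeq2 adjusted p of 0.079. Over the alternatives with a p the adjusted p ran from 0.0790 to 0.995, and the fitted value was 4.58 without dura mater replicate 1. Cox4i1, the common isoform, was at 167 and 535 CPM in brain and 434 and 382 CPM in dura mater, with overlapping groups.

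Of the counts for both isoforms together, Cox4i2 held 6.74% (Wilson interval 6.15 to 7.39) in dura mater replicate 1 and 0.858% (0.659 to 1.12) in dura mater replicate 2. In brain it held 0 of 2414 counts, which allows a share of up to 0.124%, and 0 of 7084 counts, which allows up to 0.0423%. Cox4i1 thus held most counts of the pair in each library. Beside Cox4i2, the 10 mural cell markers held 0.0695% and 0.113% of counts in brain and 0.116% and 0.0707% in dura mater, and 0 of the 10 passed the test. Most of these counts came from Acta2, smooth muscle actin, without which the list held 0.0351% and 0.0357% against 0.0595% and 0.0479%. For 4 of the 10, both dura mater libraries were above both brain libraries, and for 1 they were below them, where 26.2% and 16.9% of all genes were. Kcnj8, a pericyte potassium channel, was also at 0 in brain, with 468 and 410 counts in dura mater, and Cspg4, also made by pericytes, had 0 and 1 counts against 263 and 65. Des, which encodes desmin, went the other way, with 1056 and 1350 counts in brain and 412 and 284 in dura mater. These 4 markers are named after their values were seen, and the part of mural cells in the Cox4i2 values was not tested.

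Cox6b2, the testis isoform of subunit 6b, had 0 and 1 counts in brain and 153 and 85 counts in dura mater (0 and 0.0756 CPM against 11.4 and 5.21 CPM). Its log2 fold change was 5.58 (SE 2.74, edgeR adjusted p = 0.525), and the ratio of pooled counts was 222 with a counting interval from 39.4 to 8801. It held 11.2% (9.64 to 13.0) and 2.30% (1.87 to 2.84) of the counts for Cox6b1 and Cox6b2 in dura mater, against 0 of 1578 counts (up to 0.190%) and 0.0184% (0.00325 to 0.104) in brain. Cox6b1, the common isoform, was at 109 and 411 CPM in brain and 90.5 and 221 CPM in dura mater, with overlapping groups. As for Cox4i2, dura mater replicate 1 had the higher share of the less common isoform.

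Of the isoforms known from heart and skeletal muscle, Cox6a2 and Cox8b had 0 counts in every library. Cox7a1 had 135 counts (8.27 CPM) in dura mater replicate 2 and 0 in the others, 2.95% (2.50 to 3.48) of the counts for Cox7a1 and Cox7a2 in that library. Cox8c and, named after its values were seen, Cox7b2 had 0 counts in every library. Their common counterparts were well counted, with Cox6a1 at 469 and 618 CPM in brain against 297 and 521 CPM in dura mater, and Cox8a at 233 and 436 CPM against 264 and 307 CPM. Cox7a2 was at 249 and 251 CPM in brain and 58.9 and 272 CPM in dura mater, where dura mater replicate 1 alone was low. The groups overlapped for these 3 genes.

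Cox7a2l, a relative of Cox7a2, was at 125 and 317 CPM in brain and 341 and 460 CPM in dura mater. Both dura mater libraries were higher (replicate 1 by a small margin over brain replicate 2), and its log2 fold change was 0.86 (SE 0.56, edgeR adjusted p = 0.745). Ndufa4 had 9 and 612 counts in brain and 682 and 721 counts in dura mater, and brain replicate 1 stood alone. Ndufa4l2, its relative induced by low oxygen and made by pericytes, had 0 and 491 counts in brain and 1 and 117 counts in dura mater. It was present in replicate 2 of each tissue and at 0 or 1 count in replicate 1, so no tissue difference could be read, and its fitted value of -2.31 turned to 4.74 without brain replicate 2. Of the 10 mural markers, 3 were higher in replicate 2 than in replicate 1 of both tissues. Rgs5, a pericyte marker among these 3 and named after its values were seen, had 11 and 342 counts in brain and 2 and 179 in dura mater, whereas Kcnj8, Cspg4, Acta2 and Des did not have this order, and the part of pericytes in the Ndufa4l2 values was not tested.

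**Figure D3:**
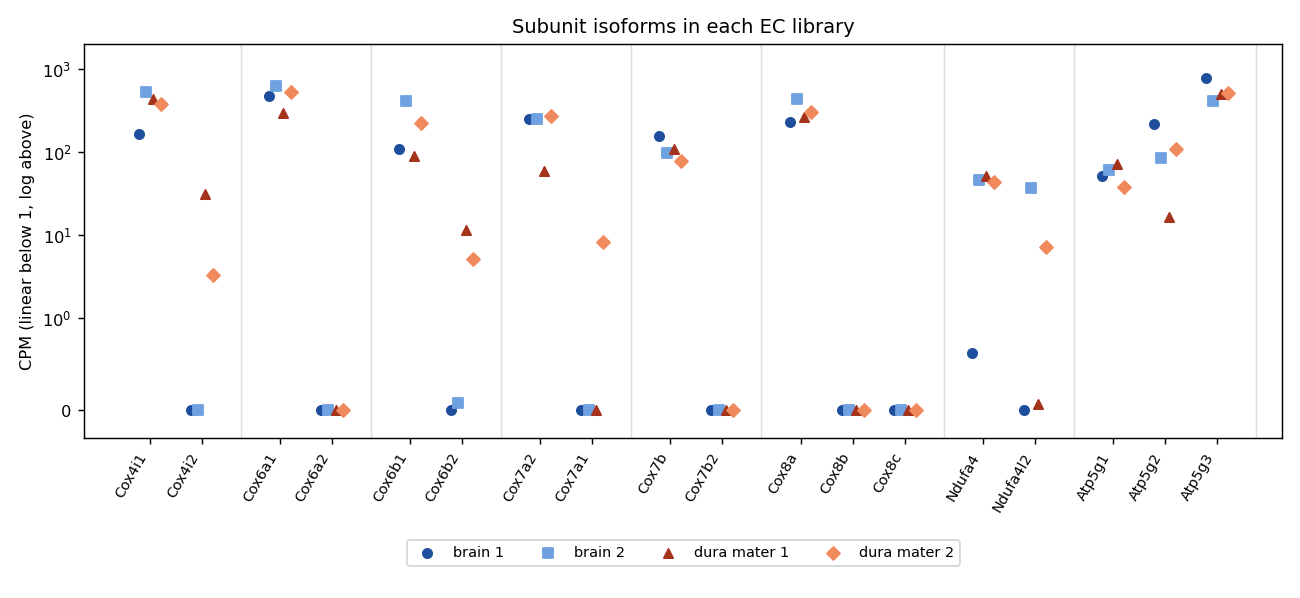
Level of the subunit isoforms in each library in CPM, on an axis that is linear below 1 and logarithmic above. Cox4i2 and Cox6b2 have values in both dura mater libraries and lie at 0 or 0.0756 CPM in brain, while Cox6a2, Cox7b2, Cox8b and Cox8c lie at 0 in every library.

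In complex V, all 16 tested genes had at least 64 counts in every library. At least 2-fold higher values in dura mater were fitted for 0 of them and at least 2-fold lower values for 2, Atp5g2 (described with its family) and Atp5f1. Of all 9347 genes tested, 2653 were fitted at least 2-fold higher and 2398 at least 2-fold lower. Atp5f1, a stalk subunit named after its values were seen, was at 168 and 142 CPM in brain and 90.8 and 53.8 CPM in dura mater, so that both dura mater libraries were lower (log2 fold change -1.10, SE 0.70, edgeR adjusted p = 0.729). Atp5sl was counted here by its symbol only. It is listed as Dmac2 in GENCODE, a gene known for a role in complex I assembly. Also named after its values were seen, it was at 46.2 and 41.5 CPM in brain and 76.9 and 59.5 CPM in dura mater, higher in both dura mater libraries (log2 fold change 0.64, SE 1.16, edgeR adjusted p = 1.000). Fitted values were above 0 for 5 and below 0 for 11 (median -0.20). Atp5a1, the alpha subunit, was at 485 and 192 CPM in brain and 364 and 322 CPM in dura mater, with a log2 fold change of 0.02 (95% interval -1.28 to 1.31), whose sign changed with the scaling. Atp5b, the catalytic beta subunit, was at 289 and 164 CPM in brain and 317 and 357 CPM in dura mater. Both dura mater libraries were higher, without passing the test (log2 fold change 0.57, SE 0.48, edgeR adjusted p = 0.910). Atp5c1, the rotating gamma subunit, was at 72.9 and 126 CPM in brain and 56.6 and 76.9 CPM in dura mater, with overlapping groups.

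The proton-carrying c subunit is made from 3 genes that give the same mature protein. Atp5g3 held most of the counts of the family, 74.2% and 73.6% in brain and 85.0% and 77.9% in dura mater, and was at 771 and 406 CPM against 499 and 521 CPM (log2 fold change -0.21, SE 0.42). Atp5g2 held 20.8% and 15.5% in brain and 2.82% and 16.4% in dura mater. Dura mater replicate 1 was low for this gene, at 16.6 CPM, where the other libraries were at 85.6 to 216 CPM, and sequence shared with other genes covers 55.5% of its 3′ end. Its log2 fold change was -1.25 (SE 1.08). Atp5g1 held 5.004% and 10.9% in brain and 12.1% and 5.65% in dura mater, at 37.7 to 71.4 CPM. Atp5s, an assembly-linked relative named after its values were seen, had 0 and 344 counts in brain and 4 and 0 in dura mater and was not tested.

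**Figure D4:**
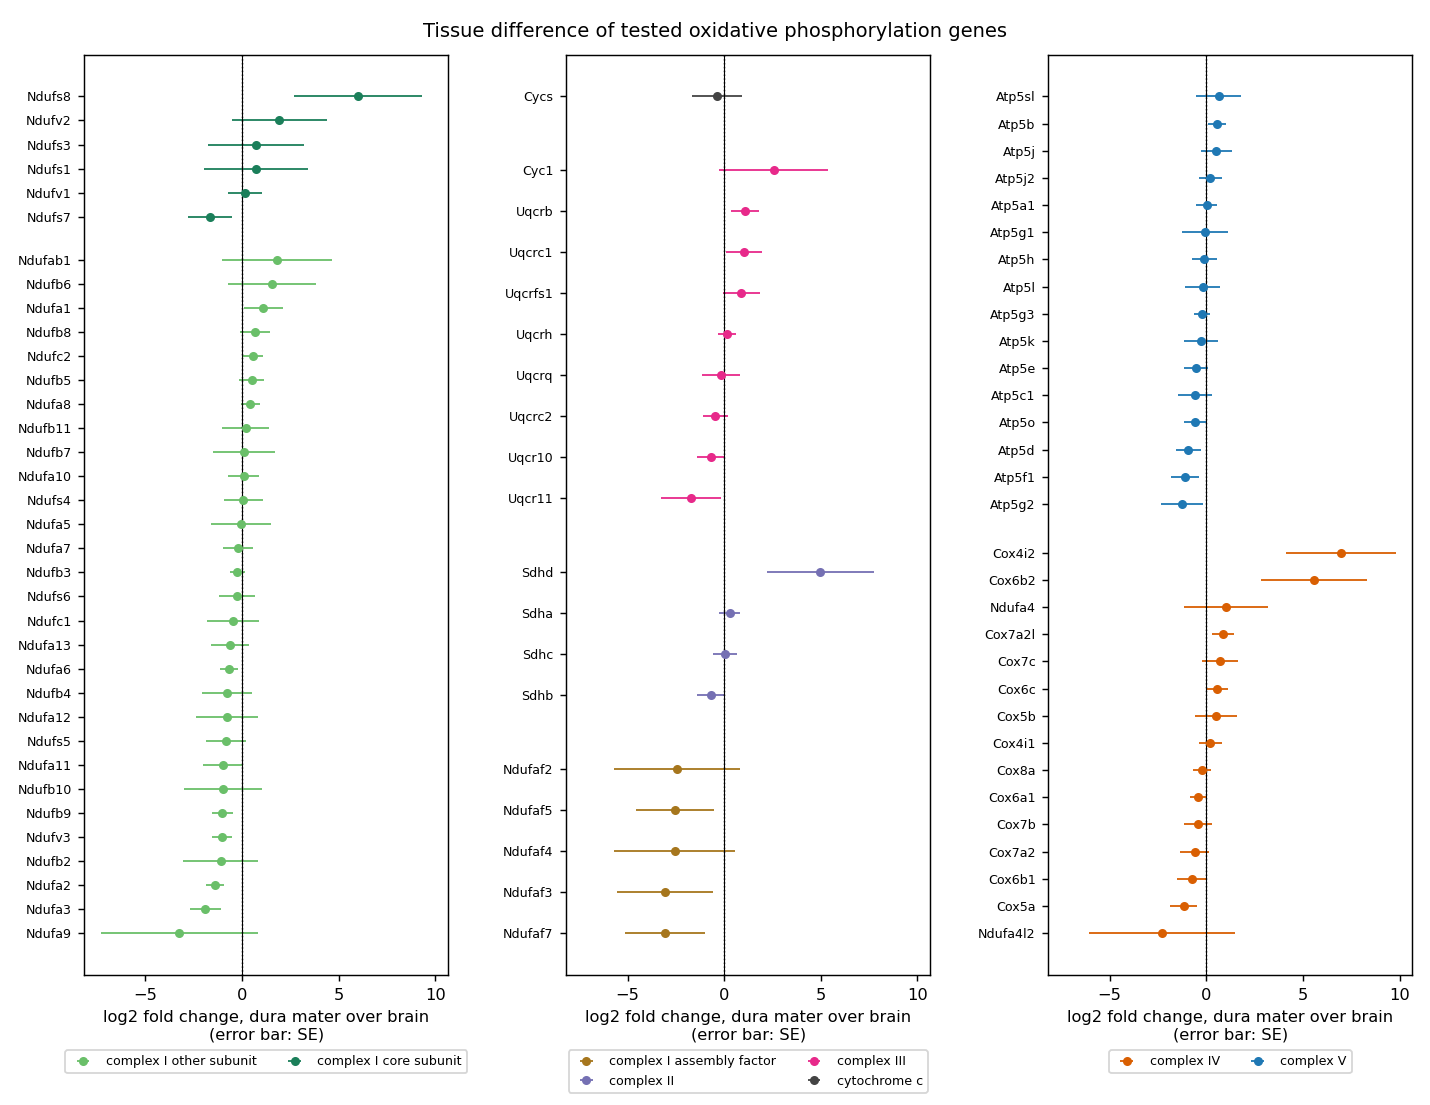
Log2 fold change of the tested members, 1 of them not shown, dura mater over brain, with the SE from edgeR as error bar. The solid line marks 0 and the dotted line the median of all genes, -0.01, and none of the members passed an adjusted p of 0.05.

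Distances between replicates of a tissue were of the same order as those between the tissue means. The median distance between replicates over the 86 tested members was 0.91 (log2) in brain and 0.76 in dura mater, against 0.69 between the tissue means. A mean of 2 libraries varies less than a single library, so these 2 kinds of distance are not measured alike. For all genes the corresponding distances were 1.37, 1.12 and 1.31, so that members varied less than the typical gene on each measure, with no matching for level. Replicates were within 2-fold for 46 members in brain (53.5%) and 52 in dura mater (60.5%), against 42.5% and 46.5% of all genes, and more than 8-fold apart for 13 (15.1%) and 9 (10.5%) members, against 31.6% and 22.4%. Among all 94 members, 9 were at 7 or fewer counts in dura mater replicate 1 and at 64 or more in dura mater replicate 2, and 0 showed the reverse. These 9 were Ndufaf1, Ndufaf2, Ndufaf3, Ndufaf4, Ndufaf7, Ndufs1, Ndufa9, Ndufa4l2 and Cox7a1, of which Ndufa9 is named after its values were seen. In brain, 4 were split in this direction and 3 in the other.

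**Figure D5:**
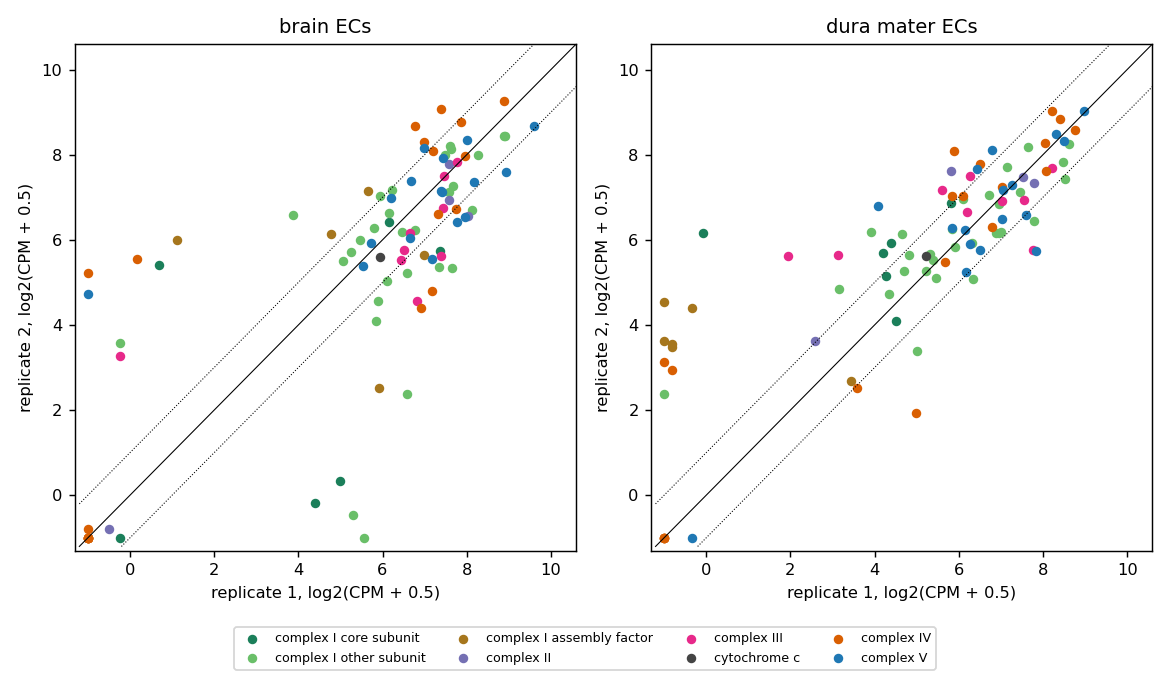
Level of the members, 1 of them not shown, in replicate 2 against replicate 1, in log2 of CPM plus 0.5, for brain ECs and dura mater ECs, coloured by group. The solid line marks equal levels and the dotted lines 2-fold differences. At the left of the dura mater panel lie the 9 members near 0 in replicate 1 and present in replicate 2, beside members near 0 in both replicates.

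The wider mitochondrial programme gave no call either. Of 138 further genes in 10 lists, 110 were tested, and 0 passed in either direction, with 3 at an unadjusted p under 0.05. Fitted values were above 0 for 54 and below 0 for 56, with a median of -0.03. Enzymes of the citric acid cycle had 9 of 13 tested genes above 0 and held 0.0616% and 0.0682% of counts in brain and 0.0897% and 0.101% in dura mater. The adenine nucleotide and phosphate carriers, which supply complex V with its substrates, had 5 of 6 above 0 and held 0.0847% and 0.0766% against 0.118% and 0.132%. In both lists each dura mater library lay above each brain library. Slc25a3, the mitochondrial phosphate carrier named after its values were seen, had 5720 and 5945 counts in brain and 9765 and 10754 in dura mater (log2 fold change 0.72, SE 0.34, edgeR adjusted p = 0.510). Without Slc25a3 the carrier list held 0.0452% and 0.0336% in brain against 0.0459% and 0.0652% in dura mater. Dura mater replicate 1 was then close to brain replicate 1.

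Genes of mitochondrial shape, such as the fusion and fission factors, had 2 of 9 above 0 and 7 below 0, and held 0.0891% and 0.0852% of counts in brain and 0.0407% and 0.0567% in dura mater. Dnm1l, the fission dynamin named after its values were seen, had 1152 and 2600 counts in brain and 262 and 216 in dura mater (log2 fold change -3.06, SE 1.04, edgeR adjusted p = 0.446). Genes of fatty acid oxidation had 4 above and 9 below 0, with 0.107% and 0.123% of counts against 0.0688% and 0.0824%. Medians of the remaining lists were 0.30 for pyruvate entry, 0.06 for assembly factors of complexes III and IV, -0.16 for further assembly and regulatory factors of complexes I, II and V, -0.67 for upkeep of mitochondrial DNA, 0.32 for regulators of respiratory genes and -0.37 for protein import. Among the regulators, Ppargc1a, the coactivator known to raise mitochondrial genes and named after its values were seen, had 0 counts in every library.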

How the data were processed

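RNA of FACS-sorted ECs was sequenced from 2 brain and 2 dura mater libraries, grouped by the sample titles. The authors deposited raw counts per gene symbol, 1 table per library, with no scaling. The methods of the study name TopHat and cufflinks, whereas the submitters' processing notes list Bowtie2, edgeR and mm10. The counting step, the strand setting and the handling of molecular identifiers are not given in the sources used here.

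Counts were tested with the quasi-likelihood test of edgeR 4.0.16 (R 4.3.3) after filterByExpr and TMM scaling, with tissue as the only term, a prior count of 2 and p-values adjusted by Benjamini-Hochberg over all 9347 genes. The cufflinks test of the study works on alignments, not used here. SE is the absolute log2 fold change divided by the root of its F statistic, and CPM values use the TMM-adjusted total. The alternatives were DESeq2 1.42.0, limma 3.58.1 (voom), other scalings, filters and a prior count of 0.5, a replicate block, an adjusted p of 0.01 and each library left out. A newer edgeR dispersion estimate was chosen after seeing the data. Scripts were tested on simulated data.

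Gene positions and overlaps are from GENCODE M21 (GRCm38), matched for 93 of 94 members, and the annotation behind the counts may differ. Of these members, 28 had exon overlap with an antisense gene, and 30 shared runs of 50 bases in their last 300 transcript bases with another gene. Genes named were the catalytic core subunits, the isoform families, the 3 members in each direction with the largest fold change among those whose groups did not overlap, and the 2 most counted members of each complex. Genes outside it carry the remark that their values had been seen. 1 member is not reported on its own here, although it is part of the counts and shares. The members, the lists and this rule were chosen with earlier results of these data known. Where libraries of both tissues share a replicate number, their deviations from the tissue means were uncorrelated over genes (-0.0153), and no shared animal is named.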

Additional observations from a re-analysis of the deposited data

How the results depend on the processing

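No alternative other than leaving out brain replicate 2 gave a call among the members. That setting gave 2 (Ndufa2, lower in dura mater, among them), so that counts of called members ran from 0 to 2 when a library was left out. With a lone library in a tissue, that library is assumed to vary like the pair of the other tissue. The number of all genes called, 57 (40 higher and 17 lower), was 807 (617 and 190) with DESeq2, 326 (195 and 131) with no filter on low counts, 141 (75 and 66) with 10 counts in every library, 305 (180 and 125) with the newer dispersion estimate and 1 at an adjusted p of 0.01, and it ran from 80 to 740 when a library was left out. With the replicate number as a block it was 224 (133 and 91), 0 of them members, but the labels do not pair the libraries. Counts were 80 with limma-voom and 53 to 72 under other scalings, and the cause of these shifts was not tested. The members' median log2 fold change stayed below that of all genes in each of these settings, by 0.19 to 0.20 under the scalings, the largest of which moved the median of all genes by 0.14, and by 0.06 (without dura mater replicate 2) to 1.19 (without brain replicate 2) when a library was left out. It was itself -0.00378 without brain replicate 1, and the difference in the members' share of counts ran from -0.176 to -0.0307 points. Of the 86 tested members, 40 changed sign in at least 1 of 15 settings, among them 6 under another scaling. At this replicate spread, intervals of log2 fold changes were wide for members with few counts, so absence of a call does not show equal levels.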
